A study of Mus musculus with 12 samples.

Results

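To describe how the enzymes that oxidise and reduce alcohols, aldehydes and steroids behave in the obese liver, genes of the aldehyde dehydrogenase (Aldh), alcohol dehydrogenase (Adh), aldo-keto reductase (Akr), hydroxysteroid dehydrogenase (Hsd), retinol dehydrogenase (Rdh) and short-chain dehydrogenase/reductase (Dhrs) families were followed in 2 mouse models of obesity. The members are the protein-coding genes whose symbol starts with one of these family names and that had a transcript with a completed test status in the deposited tables. Hsd3b7, Hsd17b4, Hsd17b7, Akr1d1 and Akr1c6 were set aside, and each gene was represented by its most abundant such transcript. This gave 44 genes of 9486 protein-coding genes in the dietary model, 54 of 9173 in the genetic model, and 54 of 10726 in either. All 44 genes of the dietary model were also measured in the genetic model. A further 26 genes with these names were listed but had no tested transcript in either table: Adh6a, Adh6b, Akr1b3, Akr1c18, Akr1c21, Akr1cl, Aldh16a1, Aldh1a2, Aldh1l2, Aldh3a1, Aldh3b2, Aldh3b3, Aldh7a1, Dhrs2, Dhrs7c, Hsd11b2, Hsd17b1, Hsd17b14, Hsd17b3, Hsd3b1, Hsd3b4, Hsd3b6, Rdh1, Rdh12, Rdh19 and Rdh8.

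Total RNA of 12 livers was sequenced, with 3 livers in each of 4 groups. In the dietary model, wild-type mice fed a high-fat diet (HFD, 54 kJ% fat, for 30 weeks) were set against wild-type mice on a control diet (CD, 11 kJ% fat). In the genetic model, mice labelled Leprdb (db), obese for want of leptin receptor signalling, were compared with misty mice labelled Dock7m +/+ Leprdb, which the study's methods use as lean littermates, both on the control diet. The labels give strain C57BL/6 and an age of 36 weeks for all 4 groups. The study's methods describe male mice, a BKS background for db and misty, a younger age for these groups and another number of animals, so the age, background and number of livers behind the db and misty values are uncertain. The series text describes misty mice as a model of obesity, and the misty label does not spell out which receptor alleles those mice carried. By the study's methods, the 2 models also differed in sequencing centre, library kit and instrument. Differences between the models cannot be told apart from these. The deposited tables hold 1 pooled value per group, in FPKM (fragments scaled to transcript length and library size). No spread between livers can therefore be computed, no test was run, the depth per liver is unknown, and every difference given here compares single pooled values. A member was counted as higher or lower where its groups were at least 2-fold apart on the log2(FPKM + 0.1) scale and the higher of them reached 1 FPKM. This scale understates differences of genes with low values.

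Aldehyde dehydrogenases use NAD or NADP to turn aldehydes into acids, and so clear acetaldehyde, retinaldehyde and the aldehydes released by peroxidised lipid. Alcohol dehydrogenases, retinol dehydrogenases and aldo-keto reductases carry out the step between alcohol and aldehyde or ketone, in ethanol, retinol and sugar metabolism. Hydroxysteroid dehydrogenases do the same on the steroid ring, and by this step switch glucocorticoids, androgens and oestrogens between active and inactive forms. The hepatocyte is rich in many enzymes of these families, though not in every member, and several of them are known to differ between male and female mouse liver.

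The livers carried hepatocyte transcripts at high levels. Apoa2, an apolipoprotein of hepatocytes, had 4865 FPKM in HFD and 5867 FPKM in CD, and 5775 FPKM in db and 4022 FPKM in misty. Apoa1, another, had 1847 FPKM in HFD and 3659 FPKM in CD, and 1244 FPKM in db and 3623 FPKM in misty, so the markers did not all move one way. Of 10 hepatocyte markers, 8 were tested in the dietary model, with 1 above 0 and a median log2 ratio of -0.40, and 9 in the genetic model, with 4 above 0 and a median of -0.29. The albumin gene Alb is listed at 0 in all 4 groups, so a low value in these tables can be a failed estimate, and values are those of the listed transcripts and not gene totals. Tested macrophage markers summed to 29.4 FPKM in HFD and 14.7 FPKM in CD, with 2 of 6 at least 2-fold higher, and to 12 FPKM in db and 14.8 FPKM in misty, with 1 of 4 lower. Tested cholangiocyte markers summed to 18.8 FPKM in HFD and 6.79 FPKM in CD, or 4.24 FPKM in HFD and 3.61 FPKM in CD without Spp1, and to 6.87 FPKM in db and 7.12 FPKM in misty, with Sox9 lower in db, while Krt7 is listed at 0. The part of such cells in the results was not tested, and in whole liver fewer cells of a type and less RNA per cell cannot be told apart.

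These promoters are shown because they belong to the aldehyde dehydrogenases that the results turn on: Aldh1b1, the one member higher in both models, and the neighbours Aldh1a1 and Aldh1a7, which were higher together in db. Each is the 250 bases before the RefSeq start site on GRCm38.p6, printed 5′ to 3′ on the strand of the gene. Capitals mark the longest run of bases that the Aldh1a1 and Aldh1a7 promoters have in common, and nothing is marked in Aldh1b1.
Aldh1b1: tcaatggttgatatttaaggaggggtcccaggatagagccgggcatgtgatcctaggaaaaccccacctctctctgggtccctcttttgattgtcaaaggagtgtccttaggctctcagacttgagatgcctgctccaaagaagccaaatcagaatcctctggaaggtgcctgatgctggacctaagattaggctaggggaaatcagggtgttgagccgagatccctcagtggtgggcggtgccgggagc
Aldh1a1: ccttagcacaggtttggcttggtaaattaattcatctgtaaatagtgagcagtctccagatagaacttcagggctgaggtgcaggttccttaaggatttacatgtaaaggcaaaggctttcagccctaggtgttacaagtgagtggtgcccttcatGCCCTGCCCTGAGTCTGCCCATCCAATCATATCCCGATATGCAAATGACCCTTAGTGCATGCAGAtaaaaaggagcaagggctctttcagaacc
Aldh1a7: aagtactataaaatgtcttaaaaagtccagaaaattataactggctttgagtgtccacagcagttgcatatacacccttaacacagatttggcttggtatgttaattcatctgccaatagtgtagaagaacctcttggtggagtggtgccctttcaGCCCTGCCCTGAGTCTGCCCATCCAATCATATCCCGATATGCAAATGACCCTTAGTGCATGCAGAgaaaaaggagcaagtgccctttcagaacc
The Aldh1b1 window is chr4:45798772-45799021 on the + strand, Aldh1a1 lies at chr19:20601718-20601967 on the + strand and Aldh1a7 at chr19:20727557-20727806 on the - strand. The start sites in the deposited tables lay 0, 7 and 6 bases from the RefSeq ones for Aldh1b1, Aldh1a1 and Aldh1a7. The shared run is 65 bases long and spans the same place in both promoters, 94 to 30 bases before the start site. The coding sequences of Aldh1a1 and Aldh1a7, both 1506 bases, are 91.6% identical, so the split of reads between this pair is uncertain. RefSeq gave a promoter for 48 of the 54 members. The antioxidant response element core TGACNNNGC, searched on both strands, was present in 3 of these 48 (Aldh9a1, Hsd11b1 and Rdh14) and in 10.2% of all 32851 promoters. The STAT5 site TTCNNNGAA was present in 5 of 48 members (Akr1c19, Aldh18a1, Aldh8a1, Aldh9a1 and Rdh16) and in 7.02% of all promoters. The AP-1 site, searched as TGACTCA or TGAGTCA on both strands, was present in 3 of 48 (Adh7, Dhrs9 and Rdh9) and in 4.46%. None of these letters occur in the windows of Aldh1b1, Aldh1a1 and Aldh1a7, and where they occur they are a match of letters only.

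Across the families, members past 2-fold were few in the dietary model and more frequent in the genetic model. This contrast was not tested and cannot be told apart from the different sequencing centre, kit and instrument of the models. In the dietary model 1 of 44 was at least 2-fold higher in HFD (2.27%, where 3.42% of all protein-coding genes were) and 3 of 44 were lower (6.82%, where 1.35% of all genes were). Of the 36 members that averaged 1 FPKM or more over both groups, 1 was higher and 3 were lower (2.78% and 8.33%, against 4.38% and 1.97% of all genes at that level). The median log2 ratio of the members was -0.00, the same as that of all genes, with 22 members above and 22 below 0. In the genetic model 13 of 54 members were at least 2-fold higher in db (24.1%, where 4.70% of all genes were) and 3 of 54 were lower (5.56%, where 2.82% of all genes were). Of the 37 members that averaged 1 FPKM or more, 12 were higher and 3 lower in db (32.4% and 8.11%, against 7.11% and 3.94% of all genes). Of the 13 higher members, Dhrs7 rests on a misty value next to 0, and 12 were higher with such estimates set aside, a step chosen after seeing the data. The median log2 ratio was 0.45 in db, where that of all genes was 0.02, and 39 of 54 members were above 0 (72.2%, where 51.6% of all genes were).

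**Figure D1:**
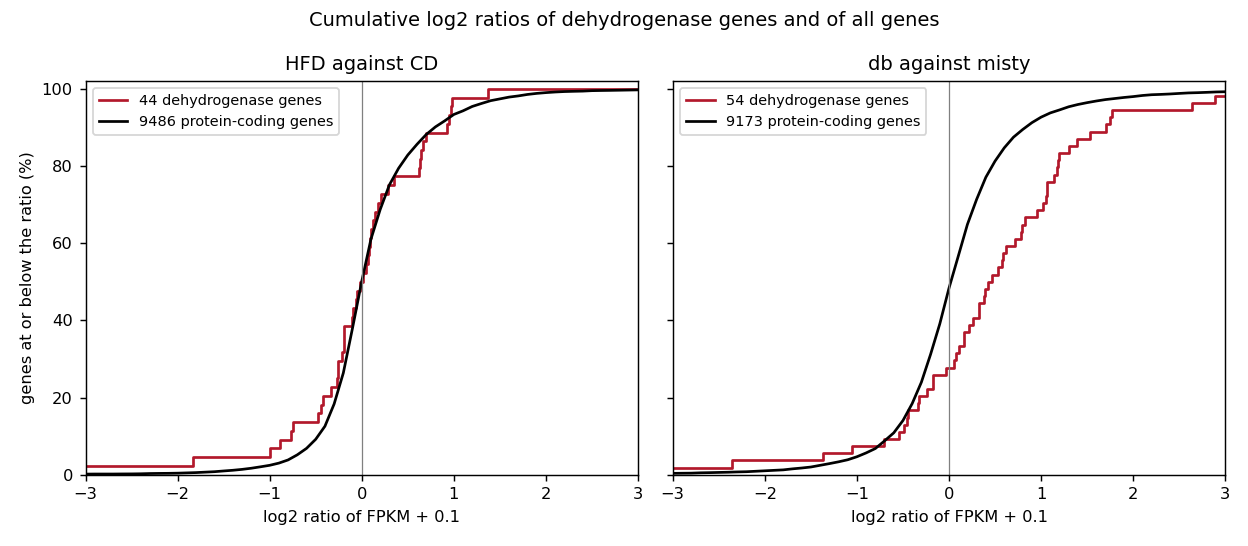
Share of genes (%, vertical axis) at or below each log2 ratio of FPKM + 0.1 (horizontal axis), for the dehydrogenase genes (red steps) and for all protein-coding genes (black line), in HFD against CD (left) and db against misty (right). The curves cross 0 at 50% of members and 50.1% of all genes in the dietary model, and at 27.8% of members and 48.4% of all genes in the genetic model.

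Pooled levels spanned several orders of magnitude. Members had a median of 4.41 FPKM in HFD and 4.44 FPKM in CD, and the highest was Hsd17b10, a mitochondrial enzyme of isoleucine breakdown, with 183 FPKM in HFD and 208 FPKM in CD. In the genetic model the median was 3.04 FPKM in db and 2.45 FPKM in misty, and Aldh1a1 was highest in both groups. Members summed to 779 FPKM in HFD and 814 FPKM in CD, and to 2093 FPKM in db and 1100 FPKM in misty. Without Aldh1a1 the sum was 972 FPKM in db and 605 FPKM in misty. Differences in level between the models were not interpreted. The 2 tables were normalised separately, the models differed in sequencing centre, kit and instrument, and a gene can be listed at very different levels in the tables.

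**Figure D2:**
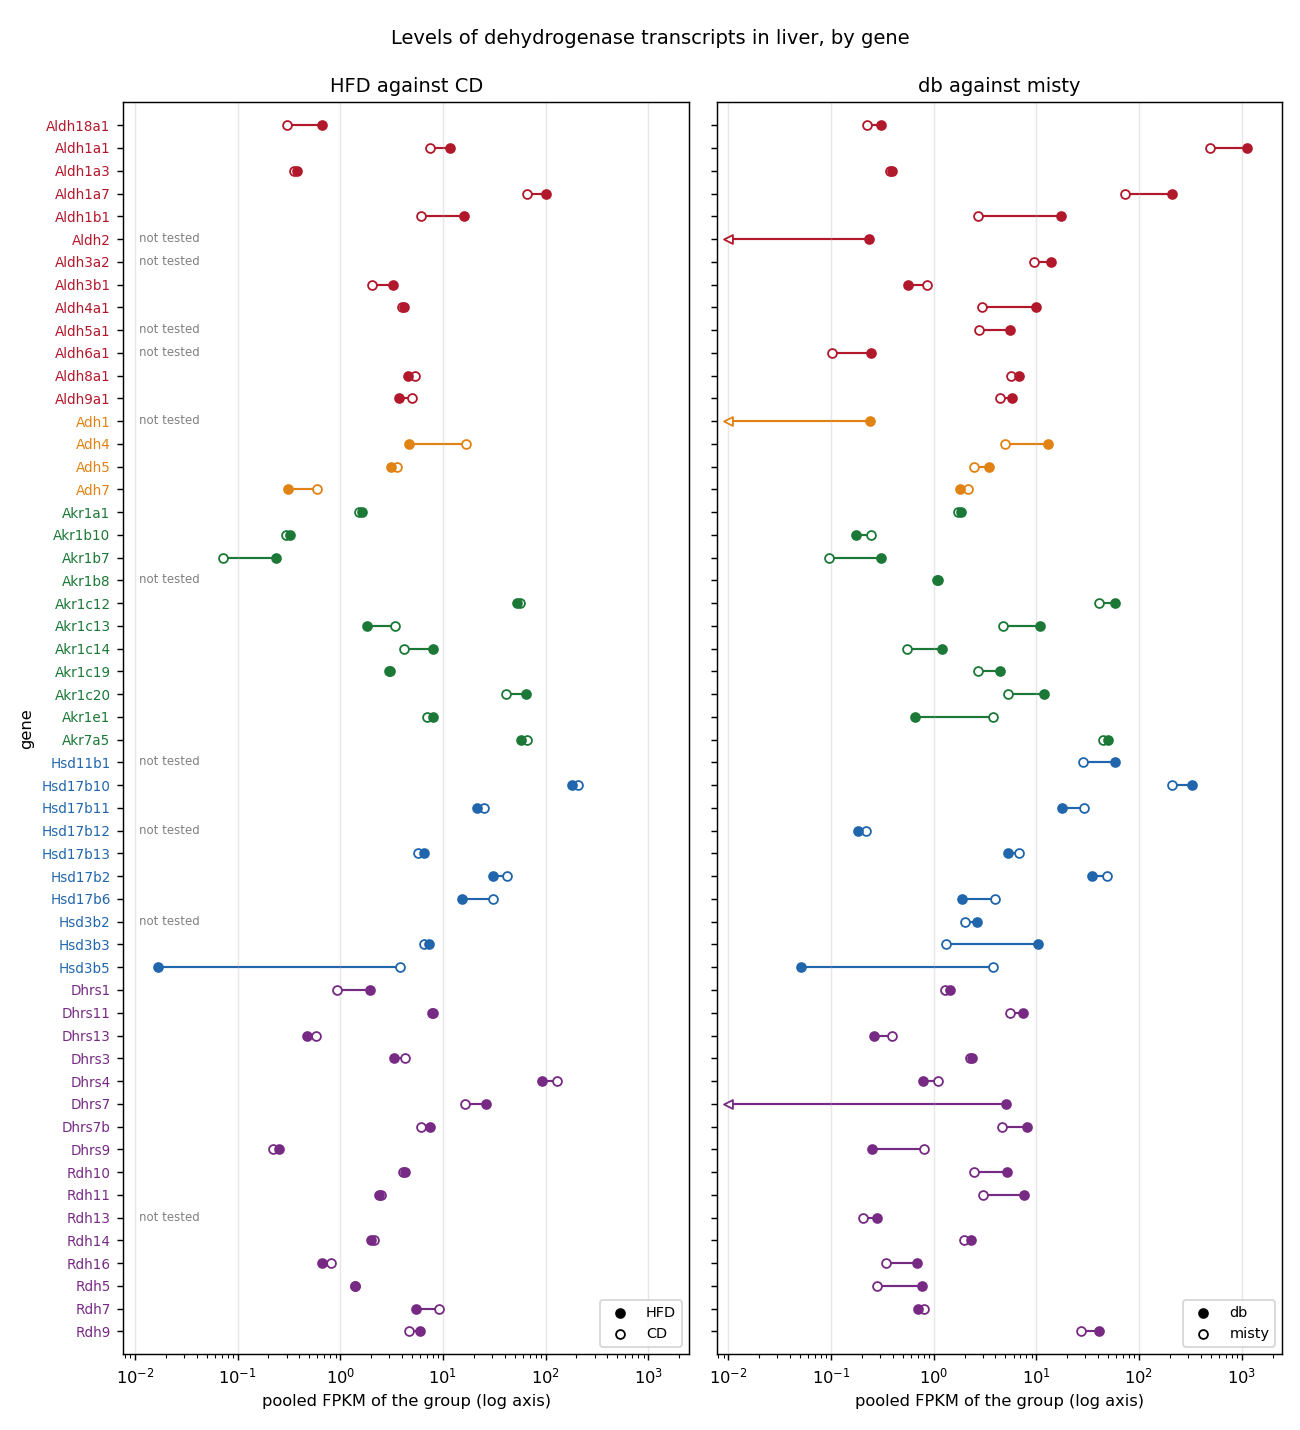
Pooled FPKM (log axis) of each member in HFD and CD (left) and in db and misty (right), 1 value per group, with filled circles for HFD and db, open circles for CD and misty, and colours for the 5 families. Open triangles at the left edge mark 3 misty values next to 0 (Aldh2, Adh1 and Dhrs7), Hsd3b5 has the longest line in the left panel, and most filled circles lie to the right of the open ones in the right panel.

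The aldehyde dehydrogenases lay mostly above 0 in both models. In HFD 7 of 9 lay above 0 (median log2 ratio 0.62) and in db 12 of 13 did (median 0.78), with 1 and 4 members at least 2-fold higher. Of all protein-coding genes, 49.9% lay above 0 in HFD and 51.6% in db, and 3.42% and 4.70% were at least 2-fold higher. Without Aldh2, whose misty value is next to 0, 11 of 12 lay above 0 in db (median 0.67). Aldh1b1, a mitochondrial enzyme that oxidises acetaldehyde and retinaldehyde, was the only member of any family that was at least 2-fold higher in both models. It had 16.0 FPKM in HFD and 6.14 FPKM in CD, a 2.58-fold difference (log2 ratio 1.37). In db it had 17.5 FPKM, against 2.73 FPKM in misty, a 6.23-fold difference (2.64). Aldh1a1, a cytosolic enzyme that makes retinoic acid from retinaldehyde, had 1122 FPKM in db and 495 FPKM in misty (2.26-fold), and 11.7 FPKM in HFD and 7.41 FPKM in CD (1.57-fold). A second tested line of the same Aldh1a1 transcript gave 16.7 FPKM in db and 6.72 FPKM in misty, a log2 ratio of 1.3 beside 1.18 for the main line. Aldh1a7, its rodent paralog, had 210 FPKM in db and 72.7 FPKM in misty (2.89-fold), and 101 FPKM in HFD and 65.5 FPKM in CD (1.54-fold). Both neighbours were thus above 0 in both models, and past 2-fold only in db.

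Aldh4a1, the mitochondrial dehydrogenase of proline breakdown, was represented by a processed transcript, which had 9.93 FPKM in db and 2.99 FPKM in misty (3.25-fold), while its values of 4.15 FPKM in HFD and 3.96 FPKM in CD were nearly equal. Aldh3a2, which oxidises fatty aldehydes, was tested in the genetic model only, with 14.0 FPKM in db and 9.40 FPKM in misty (log2 ratio 0.57). Aldh5a1, which oxidises succinic semialdehyde, stood just short of the limit at 1.94-fold, with 5.49 FPKM in db and 2.78 FPKM in misty. Aldh2, the mitochondrial enzyme of acetaldehyde clearance, had a tested transcript of only 0.236 FPKM in db and is listed next to 0 in misty, so no fold is given. The other aldehyde dehydrogenases were 5 in the dietary model, with log2 ratios between -0.42 and 0.93, and 6 in the genetic model, between -0.54 and 0.78. These were Aldh1a3, which also makes retinoic acid, Aldh3b1, Aldh8a1, the carnitine synthesis enzyme Aldh9a1, the proline synthesis enzyme Aldh18a1 and, in the genetic model, Aldh6a1 of valine breakdown.

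The alcohol dehydrogenases, which lie in a cluster at chr3:138217760-138455499, were few and partly read from noncoding transcripts. All 3 tested in the dietary model were below 0 (median log2 ratio -0.76) and 3 of 4 in the genetic model were above 0 (median 0.93, or 0.47 with 2 of 3 above 0 without Adh1, whose misty value is next to 0). Adh4, which oxidises retinol and long-chain alcohols, had 4.69 FPKM in HFD and 16.9 FPKM in CD, 3.56-fold lower in HFD, but this was a noncoding transcript of 257 bases. In db Adh4 was represented by its coding transcript, with 13 FPKM, against 4.91 FPKM in misty (2.62-fold higher). A second tested line of that coding transcript was under 2-fold, with 4.71 FPKM in db and 2.81 FPKM in misty (log2 ratio 0.73). Summed over all its lines the log2 ratio of Adh4 in db was 1.19. The Adh4 values of the 2 models come from different transcripts and cannot be set beside each other as one gene. Adh5, the glutathione-dependent formaldehyde dehydrogenase, had 3.13 FPKM in HFD and 3.61 FPKM in CD, and 3.44 FPKM in db and 2.45 FPKM in misty, in each case on a retained intron. Its coding transcript, less abundant in the tables, was above 0 in both models, with 1.16 FPKM in HFD and 0.927 FPKM in CD, and 1.37 FPKM in db and 0.677 FPKM in misty. Adh7, an enzyme better known from stomach, had 0.308 FPKM in HFD and 0.593 FPKM in CD, and 1.81 FPKM in db and 2.16 FPKM in misty. Adh1, the main ethanol oxidising enzyme of liver, had only a processed transcript tested in the genetic model, at 0.242 FPKM in db and next to 0 in misty. The tables thus give no usable level of the main Adh1 or Aldh2 transcript.

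Among the aldo-keto reductases, which reduce aldehydes, sugars and ketosteroids with NADPH, none of 10 was past 2-fold in the dietary model. Of all protein-coding genes, 3.42% were higher and 1.35% lower there. In the genetic model 3 of 11 were counted as higher and 1 as lower, where 4.70% and 2.82% of all genes were. The Akr1c cluster at chr13:4049011-4609174 holds steroid-reducing Akr1c enzymes and Akr1e1, and 6 of its 8 listed genes were tested. In db the 5 Akr1c genes were all above 0. Akr1c13 had 10.9 FPKM in db and 4.77 FPKM in misty (2.25-fold). Akr1c20 had 11.8 FPKM in db and 5.29 FPKM in misty (2.21-fold). Akr1c14, a reductase of dihydrotestosterone and progesterone derivatives, was only just past the limit, with 1.21 FPKM in db and 0.546 FPKM in misty (2.02-fold). Akr1c12 had 58.3 FPKM in db and 40.4 FPKM in misty, and Akr1c19 had 4.48 FPKM in db and 2.69 FPKM in misty, both under 2-fold. In both models Akr1c19 was read from a processed transcript. Akr1e1, a reductase of anhydrofructose at the end of the cluster, went the other way: it had 0.655 FPKM in db and 3.77 FPKM in misty, 5.13-fold lower in db (log2 ratio -2.36, or -1.53 with a pseudocount of 1).

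In the dietary model the same cluster was split, with 3 members above and 3 below 0. Akr1c14 had 8.08 FPKM in HFD and 4.16 FPKM in CD (1.92-fold), and Akr1c20 had 65.1 FPKM in HFD and 41.2 FPKM in CD (1.58-fold). Akr1e1 was close to equal, with 8.05 FPKM in HFD and 6.93 FPKM in CD. Akr1c12 had 52.5 FPKM in HFD and 56.4 FPKM in CD, and Akr1c19 had 2.97 FPKM in HFD and 3.07 FPKM in CD. Akr1c13 had 1.82 FPKM in HFD and 3.45 FPKM in CD, on a transcript marked for nonsense-mediated decay, whereas the genetic model gave its coding transcript. Akr1c12 and Akr1c13 share 96.2% of their coding bases, so the split of reads between them is uncertain. Akr1c20 shares 92.3% with Akr1c6, which was set aside, so the split of reads between this pair is uncertain too. Outside the cluster, Akr7a5, a reductase of toxic aldehydes, had 57.1 FPKM in HFD and 65.4 FPKM in CD, and 49.4 FPKM in db and 44.3 FPKM in misty. Akr1b7, an aldose reductase-like gene, stayed under 1 FPKM in every group, at 0.239 FPKM in HFD and 0.0726 FPKM in CD (1.96-fold) and 0.307 FPKM in db and 0.0954 FPKM in misty (2.08-fold). Akr1a1, Akr1b10 and, in the genetic model, Akr1b8 had log2 ratios between -0.33 and 0.11.

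**Figure D3:**
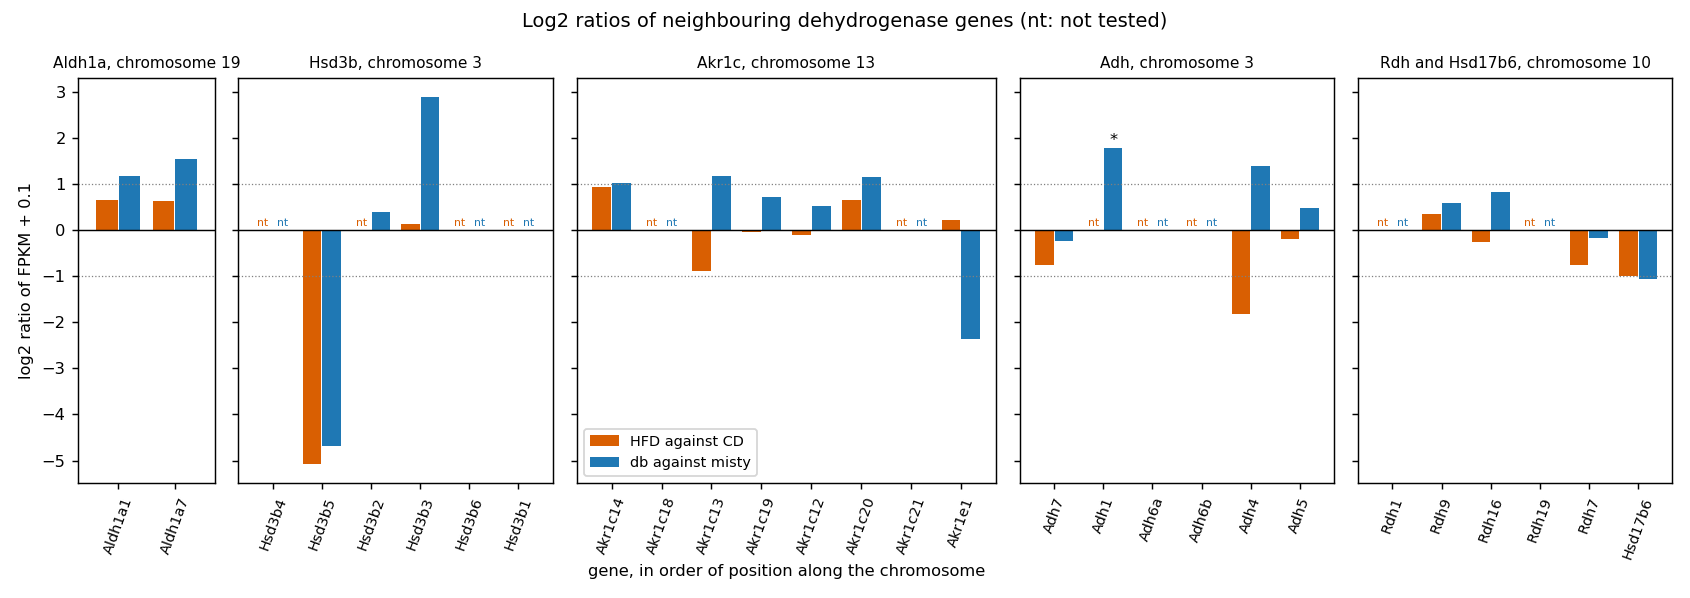
Log2 ratios of FPKM + 0.1 (vertical axis) for neighbouring members in order along the chromosome, with orange bars for HFD against CD, blue bars for db against misty, dotted lines at 2-fold and nt for genes not tested. Aldh1a1 and Aldh1a7 are above 0 in both models, Hsd3b5 is lowest in both, and Akr1e1 is the one member of its cluster below 0 in db. The star marks Adh1, whose misty value is next to 0. The orange and blue bars of Adh4 and of Akr1c13 come from different reference transcripts.

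Among the hydroxysteroid dehydrogenases, Hsd3b5, an NADPH-dependent ketosteroid reductase found in adult male mouse liver, was lower in both obese groups by more than any other member, and had the widest ratio in each model with the estimate for Dhrs7 next to 0 set aside. It had 0.0167 FPKM in HFD and 3.86 FPKM in CD, a log2 ratio of -5.08. In db it had 0.0509 FPKM, against 3.76 FPKM in misty, a log2 ratio of -4.68. The size of this difference rests on the pseudocount, with log2 ratios from -2.26 to -7.18 in HFD and from -2.18 to -5.95 in db for pseudocounts of 1 and 0.01. Its neighbour Hsd3b3, a dehydrogenase and isomerase that makes ketosteroids, was 7.41-fold higher in db, with 10.4 FPKM in db and 1.32 FPKM in misty, but had 7.30 FPKM in HFD and 6.62 FPKM in CD. Hsd3b2, of the same cluster at chr3:98499071-98859794, was tested in the genetic model only, with 2.65 FPKM in db and 2.01 FPKM in misty. Hsd3b2 and Hsd3b3 share 95.1% of their coding bases, whereas Hsd3b3 and Hsd3b5 share 80.5%. Hsd3b5 shares 95.2% with Hsd3b4, which was not tested in either table, so reads of such near copies may have been split.

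Hsd17b6, an enzyme that oxidises androstanediol and retinol, was the other member lower in both models. It had 15.3 FPKM in HFD and 30.8 FPKM in CD, 2.00-fold and so at the limit itself. In db it had 1.88 FPKM, against 4.0 FPKM in misty (2.07-fold). A second tested line of this Hsd17b6 transcript was also lower in HFD, with 3.03 FPKM in HFD and 7.01 FPKM in CD. In the genetic model 3 more lines were tested: 2 were lower in db and 1 was higher, with 1.54 FPKM in db and 0.798 FPKM in misty. Summed over all its lines the log2 ratio of Hsd17b6 in db was -0.47, so this call did not hold.

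Hsd11b1, which regenerates active corticosterone from its inactive ketone, was tested in the genetic model only, with 59.1 FPKM in db and 28.3 FPKM in misty (2.08-fold). H6pd, which supplies the NADPH for that reaction, had 10.9 FPKM in db and 14.0 FPKM in misty. Hsd17b10 had 325 FPKM in db and 212 FPKM in misty, a log2 ratio of 0.62, beside -0.19 in HFD. Hsd17b2, which inactivates oestradiol and testosterone, had 31.0 FPKM in HFD and 42.2 FPKM in CD, and 34.9 FPKM in db and 49.1 FPKM in misty. Hsd17b11, a protein of lipid droplets, had 21.3 FPKM in HFD and 25.4 FPKM in CD, and 17.8 FPKM in db and 29.0 FPKM in misty. Hsd17b13, a second lipid droplet protein known from human fatty liver, had 6.53 FPKM in HFD and 5.77 FPKM in CD, and 5.30 FPKM in db and 6.73 FPKM in misty. None of Hsd17b2, Hsd17b11 and Hsd17b13 was past 2-fold, and Hsd17b2 and Hsd17b11 were below 0 in both models. Hsd17b12, an enzyme of fatty acid elongation tested in the genetic model only, had a log2 ratio of -0.17 at under 1 FPKM. The family median was -0.25 in HFD and -0.26 in db.

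Of 15 retinol dehydrogenases and related reductases none was past 2-fold in HFD, where 3.42% of all protein-coding genes were higher and 1.35% lower. In db 3 of 16 were counted as at least 2-fold higher, and 12 of 16 were above 0, where 4.70% and 51.6% of all genes were. Without Dhrs7, whose misty value is next to 0, 2 of 15 were higher and 11 of 15 above 0. Rdh10, which oxidises retinol to retinaldehyde, had 5.22 FPKM in db and 2.45 FPKM in misty (2.08-fold), and 4.26 FPKM in HFD and 4.13 FPKM in CD. Rdh11, which reduces retinaldehyde, had 7.64 FPKM in db and 3.03 FPKM in misty (2.48-fold), and 2.38 FPKM in HFD and 2.48 FPKM in CD. Rdh10 and Rdh11 were thus near equal in the dietary model, and the Rdh10 call in db is lost when its lines are summed (log2 ratio 0.96). Dhrs7, a short-chain reductase of steroids and retinoids, had 5.03 FPKM in db and is listed next to 0 in misty, so no fold is given. Its second tested line had 0.302 FPKM in db and 0.207 FPKM in misty, and in the dietary model Dhrs7 had 26.6 FPKM in HFD and 16.3 FPKM in CD (1.62-fold).

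The chromosome 10 cluster at chr10:127759721-128000678 holds Rdh9, Rdh16, Rdh7 and Hsd17b6, whose coding sequences resemble each other up to the 96.3% of Rdh9 and Rdh16. Rdh9 had 40.4 FPKM in db and 27.0 FPKM in misty, and 5.93 FPKM in HFD and 4.65 FPKM in CD, above 0 in both. Rdh7 had 0.712 FPKM in db and 0.814 FPKM in misty, and 5.46 FPKM in HFD and 9.25 FPKM in CD, below 0 in both. Rdh16, read from a transcript marked for decay, had 0.685 FPKM in db and 0.343 FPKM in misty, and 0.665 FPKM in HFD and 0.821 FPKM in CD. Of the 4 members, the outermost, Hsd17b6, was the only one past 2-fold.

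Of the reductases outside a cluster, Dhrs4, a peroxisomal retinaldehyde reductase, had 93.3 FPKM in HFD and 130 FPKM in CD, and 0.786 FPKM in db and 1.11 FPKM in misty, with log2 ratios of -0.48 and -0.45. Dhrs11, a ketosteroid reductase, had 7.89 FPKM in HFD and 7.99 FPKM in CD, and 7.48 FPKM in db and 5.54 FPKM in misty. Dhrs7b, a peroxisomal enzyme of ether lipid synthesis, had 7.56 FPKM in HFD and 6.17 FPKM in CD, and 8.08 FPKM in db and 4.61 FPKM in misty. Dhrs1 stood just under the limit in the dietary model, with 1.93 FPKM in HFD and 0.930 FPKM in CD on a retained intron (1.98-fold), and had 1.46 FPKM in db and 1.29 FPKM in misty. Rdh5 and Dhrs9 were past 2-fold in the genetic model with under 1 FPKM in both groups and were not counted. Rdh5 had 0.768 FPKM in db and 0.281 FPKM in misty, and Dhrs9 had 0.252 FPKM in db and 0.809 FPKM in misty. Dhrs3, Dhrs13, Rdh14 and, in the genetic model, Rdh13 had log2 ratios between -0.46 and 0.32.

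Set side by side, 25 of the 44 members measured in both models lay on the same side of 0 (56.8%), and 61.0% of 7933 protein-coding genes did. Of these members 17 were above 0 in both and 8 were below in both. A further 14 were below 0 in HFD and above in db, and 5 were above 0 in HFD and below in db. Of the 40 members read from the same reference transcript in both tables, 24 were on the same side (60.0%). Aldh1b1, Hsd3b5 and Hsd17b6 were past 2-fold on the same side in both models, of which Hsd17b6 lost this in both with a pseudocount of 1 and in db over all its lines. How many of all protein-coding genes were past 2-fold on the same side in both models was not counted. No background therefore stands beside these members. The 2 comparisons share no livers.

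**Figure D4:**
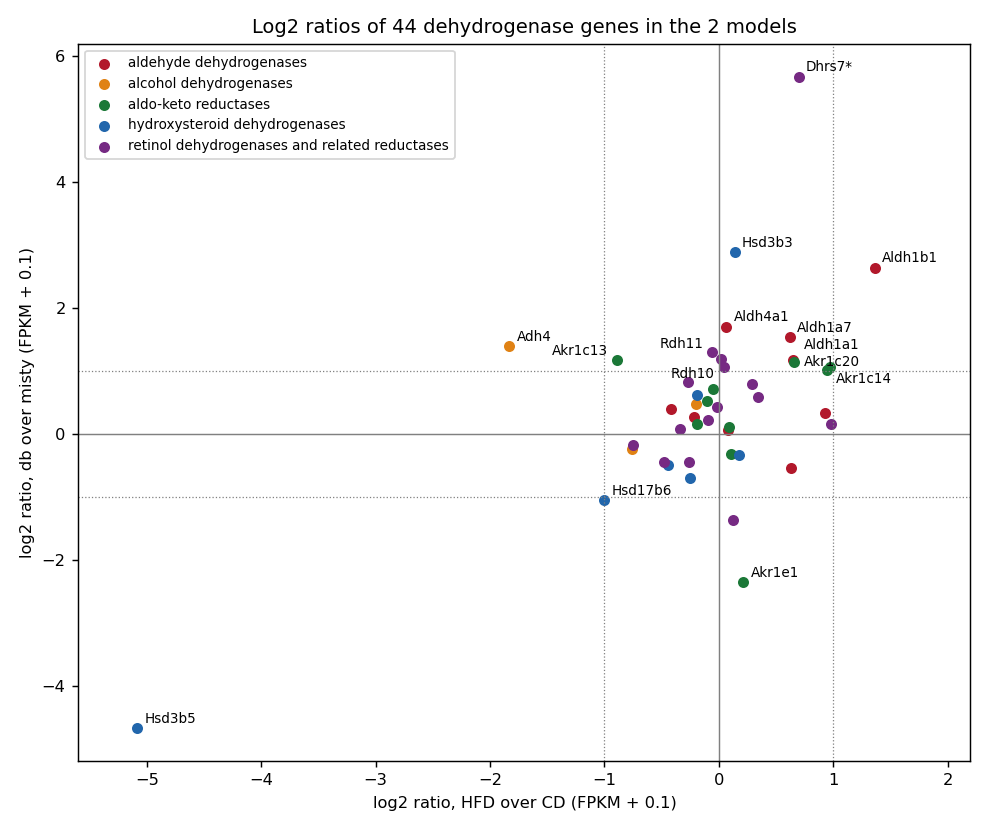
Log2 ratio of FPKM + 0.1 for db over misty (vertical axis) against HFD over CD (horizontal axis) for the 44 members measured in both models, 1 point per gene, coloured by family, with dotted lines at 2-fold and names for members counted as higher or lower in either model. Aldh1b1 is past 2-fold at the upper right, and Hsd3b5 and Hsd17b6 at the lower left. The star marks Dhrs7, whose misty value is next to 0 and whose height is not a measured fold. The points of Adh4, Akr1c13, Aldh8a1 and Rdh5 join values from different reference transcripts in the 2 models.

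Other genes of the same pathways were taken from lists of retinoid, steroid, ethanol and polyol, and cofactor and lipid peroxide genes. Beside the counts of each list, 3.42% of all protein-coding genes were at least 2-fold higher and 1.35% lower in HFD. In db these shares were 4.70% and 2.82%. Of the retinoid list 17 genes were tested in the dietary model, with 2 higher and 0 lower, and 15 in the genetic model, with 3 higher and 0 lower. Cyp26a1, which degrades retinoic acid and is itself induced by it, was the one higher in both, with 1.21 FPKM in HFD and 0.298 FPKM in CD, and 4.85 FPKM in db and 0.124 FPKM in misty. Ttr, which carries retinol in blood with its binding protein, and Bco2, which cleaves carotenoids, were higher in db. The Ttr transcript had 3.15 FPKM in db and 0.664 FPKM in misty, low values for a gene that hepatocytes express strongly, and their reason was not tested. The list medians were -0.10 in HFD and -0.08 in db.

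Of the steroid list 13 genes were tested in each model, with 0 higher and 1 lower in HFD and 2 higher and 0 lower in db. Srd5a1, which makes dihydrotestosterone, had 4.45 FPKM in HFD and 10.8 FPKM in CD, and 15.9 FPKM in db and 14.6 FPKM in misty. Sult1e1, the oestrogen sulfotransferase, had 38.7 FPKM in db and 0.0604 FPKM in misty, and 0.326 FPKM in HFD and 0.137 FPKM in CD. Cyp17a1, the enzyme of androgen precursor synthesis, had 59.8 FPKM in db and 14.8 FPKM in misty, and 8.90 FPKM in HFD and 11.1 FPKM in CD. The list medians were -0.05 in HFD and -0.09 in db, so a few genes with wide differences stood beside many near 0.

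Of the ethanol and polyol list 9 genes were tested in the dietary model with 0 counted as higher or lower, and 7 in the genetic model with 1 higher, Sord, which oxidises sorbitol (1.43 FPKM in db and 0.655 FPKM in misty). Cat in HFD (log2 ratio -1.03) and Khk in db (1.22) were past 2-fold with under 1 FPKM in both groups, as were Sult2a8 (-1.81), Gclm (-2.11) and Ptgr1 (1.35) in db and Gpx1 (-1.06) in HFD, and were not counted in their lists. The list medians were -0.17 in HFD and 0.40 in db. Of the cofactor and lipid peroxide list 2 of 10 were higher in HFD and 2 of 11 in db, with none lower in either. Nqo1, a quinone reductase, was higher in both, with 3.42 FPKM in HFD and 1.5 FPKM in CD, and 4.91 FPKM in db and 1.06 FPKM in misty. Cbr3, a carbonyl reductase, was higher in HFD, with 3.02 FPKM in HFD and 0.404 FPKM in CD. Gsta4, a glutathione transferase for the lipid aldehyde hydroxynonenal, had 68.2 FPKM in db and 19.4 FPKM in misty, and 30.3 FPKM in HFD and 21.6 FPKM in CD. The list medians were 0.39 in HFD and 0.17 in db.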

How the data were processed

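By the labels, RNA from 12 mouse livers, 3 per group, was sequenced from strand-specific libraries. The study's methods give another number of animals for db and misty, and different library kits and sequencing centres for the 2 models. Per the submitters' processing notes and the study's methods, reads were processed with Bowtie2 2.2.9, STAR 2.6.0c, Cufflinks 2.2.1 and Cuffdiff on GRCm38. The deposited tables, 1 per model and normalised separately by the authors, give each transcript 1 pooled FPKM per group. The authors' own fold change, test statistic, p, q and call columns were not used. The tables hold 62486 and 62945 transcripts, of which 19834 and 19918 have a completed test status. FPKM cannot be turned into counts, so count models were not run, and with 1 value per group no test, SD or interval was possible.

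Each protein-coding gene was represented by its tested transcript with the highest mean FPKM over both groups. Log2 ratios used FPKM + 0.1. Calls needed 2-fold and 1 FPKM in the higher group. Values under 0.001 FPKM were treated as estimates next to 0. By this rule 10 members in the dietary and 9 in the genetic model are read from a transcript without a coding biotype. Alternatives varied the pseudocount, filter, fold limit, transcript and scaling. The counting was tested on simulated data. Coding sequences came from GENCODE vM21 and were aligned with Biopython 1.88. Values were computed with Python 3.11.15, pandas 2.3.3 and numpy 2.4.6.

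The members, gene lists and marker lists were chosen with earlier results of these data known. Members are named with values where they are past 2-fold in either model, are among the 3 most abundant of their family in either table, or lie in a cluster with such a gene (33 genes). A further 7 (Akr1b7, Aldh2, Aldh5a1, Dhrs1, Dhrs9, Hsd17b13 and Rdh5) were named after their values were seen. A gene that the lists select is not reported here.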

Additional observations from a re-analysis of the deposited data

How the results depend on the processing

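No paired analysis was possible because the deposited tables hold 1 pooled value per group. For the same reason no liver could be left out. Of 98 log2 ratios of the counted members recomputed under another pseudocount, transcript choice or scaling, 91 stayed 2-fold or more. All 98 kept their direction, but most could not have changed it. A pseudocount cannot reverse a direction, the centring was too small to, and many recomputed values rest on the same line. With a pseudocount of 0.01, 2 members were at least 2-fold higher in HFD, Dhrs1 beside Aldh1b1. With a limit of 1.5-fold in place of 2-fold, 8 members were higher and 5 lower in HFD (18.2% and 11.4%, where 7.09% and 4.27% of all genes were), and 17 were higher and 4 lower in db (31.5% and 7.41%, where 10.1% and 6.19% of all genes were). With a pseudocount of 1 the median log2 ratio of members in db was 0.29, and 11 members were higher and 2 lower in db. The call of Hsd17b6 was lost with a pseudocount of 1 in both models (log2 ratios of -0.96 in HFD and -0.80 in db), and in db also when its lines were summed. Akr1c14 in db had 0.51 with a pseudocount of 1 and 1.00 after centring, which is just under 2-fold before rounding, and Rdh10 in db had 0.85 with a pseudocount of 1 and 0.96 when its lines were summed. For these members the cause was not tested, beyond the larger pseudocount drawing low values together. With transcripts of a coding biotype only, 2 members were lower in HFD, since Adh4 has no such tested transcript there. In db 12 were then higher and 3 lower, since Aldh4a1 has no such tested transcript. Without the filter on low values, 17 members were higher and 4 lower in db. Members on the same side in both models numbered 25 of 43 with 1 transcript chosen over both tables and 18 of 33 at 1 FPKM or more. Depth per liver is unknown, so no limit from counting can be given.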

Other observations

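Some members were listed at very different levels in the 2 tables on the same reference transcript. Aldh1a1 had 1122 FPKM in db and 495 FPKM in misty, against 11.7 FPKM in HFD and 7.41 FPKM in CD, and the second Aldh1a1 line of the genetic model, with 16.7 FPKM in db and 6.72 FPKM in misty, is nearer to those of the dietary model. Dhrs4 ran the other way, with 93.3 FPKM in HFD and 130 FPKM in CD, against 0.786 FPKM in db and 1.11 FPKM in misty. Each table was normalised on its own, and the models differed in sequencing centre, library kit and instrument. The part that these, or the assignment of reads to lines, play in this was not tested.

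The tables list more than 1 tested line for 16 members in the dietary and 17 in the genetic model. Of these further lines 15 of 17 in the dietary model and 18 of 21 in the genetic model lay on the same side of 0 as the line used. A group value next to 0 occurred in 32 of 9486 protein-coding genes in the dietary model and in 70 of 9173 in the genetic model, and among the members in Adh1, Aldh2 and Dhrs7, in misty each time.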
